A study of Bos taurus with 147 samples.

Results

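The muscle of crossbred cattle kept on a high or on a low diet was compared on 4 two-colour cDNA arrays of 147 arrays in the series. The arrays were taken by their labels: both channels of an array held longissimus dorsi muscle RNA of one cross, one channel from the high diet and the other from the low diet. In 2 arrays the animals were Piedmontese x Hereford (PH), with the high diet in Cy5 and the low diet in Cy3. In the other 2 arrays they were Wagyu x Hereford (WH), with the low diet in Cy5 and the high diet in Cy3. All 4 groups were thus Hereford crosses and differed in sire breed and diet. Another 3 arrays of the same table join the crosses, with PH low diet over WH low diet on 2 arrays and WH high diet over PH high diet on 1 array, so that the 7 arrays form a closed loop of 4 groups. The ages and numbers of the animals, the amounts fed, any pooling of RNA and whether replicate arrays held different animals are not given in the sources used here. P-values therefore measure only the spread between arrays, which may be technical.

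Piedmontese cattle are known for the heavy muscling that goes with loss of myostatin function, and Wagyu cattle for depositing fat within the muscle. Muscle is a store that an underfed animal draws on. In feed restriction, skeletal muscle is known to lower its protein synthesis, to shift between glucose and fatty acids as fuel, and to hold less fat between its fibers. The genes that report on these processes include the ribosomal proteins, the enzymes of glycolysis, the kinases that close pyruvate dehydrogenase, the fiber type isoforms of the sarcomere and the enzymes of lipid synthesis.

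The deposited values are ratios on the log2 scale, and a positive value is given here for RNA that was higher on the low diet. The direction is likely rather than settled. It rests on the dyes in the array labels and on the usual form of GenePix ratios, Cy5 over Cy3. In 3 dye-swapped pairs of other arrays in the same table the ratios correlated at -0.19, -0.89 and -0.23 across features. Negative values would arise with Cy5 over Cy3 and with Cy3 over Cy5 alike, so they cannot settle the direction. Were the ratios Cy3 over Cy5, every sign given here would be reversed. The titles of both WH arrays name the diets in the opposite order to their dyes, and the dyes were followed, with which the 7 arrays close into a loop that runs one way.

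The arrays carried 19200 elements, of which 4304 were paired with 1 gene symbol, for 969 genes. After elements of a gene were averaged, 5530 features, 429 of them named genes, had a ratio on all 7 arrays. PH replicate 1 stood apart from the other diet arrays before any comparison. It gave 11139 usable ratios against 16202 to 16530 on the other 3 diet arrays, and 32.3% of its ratios lay more than 2 log2 units from its median, against 5.92% to 7.48%. Of its ratios, 753 sat at the upper limit of the table and were set to missing, against 121 to 213. Across the 5530 features its ratios of low over high diet correlated at -0.10 with those of PH replicate 2, while the 2 WH arrays correlated at 0.19. Between the crosses the correlations ran from -0.21 (PH replicate 2 with WH replicate 1) to 0.16 (PH replicate 2 with WH replicate 2). The 4 diet arrays thus shared little across features. Among the arrays between the crosses, replicate 2 of PH low diet over WH low diet also spread widely. It gave 12180 usable ratios, 20.5% of them more than 2 log2 units from its median. The others gave 16822 and 16642 ratios, with 5.50% and 8.11% that far out. That array enters the fitted values within each cross and the difference between the crosses.

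**Figure D1:**
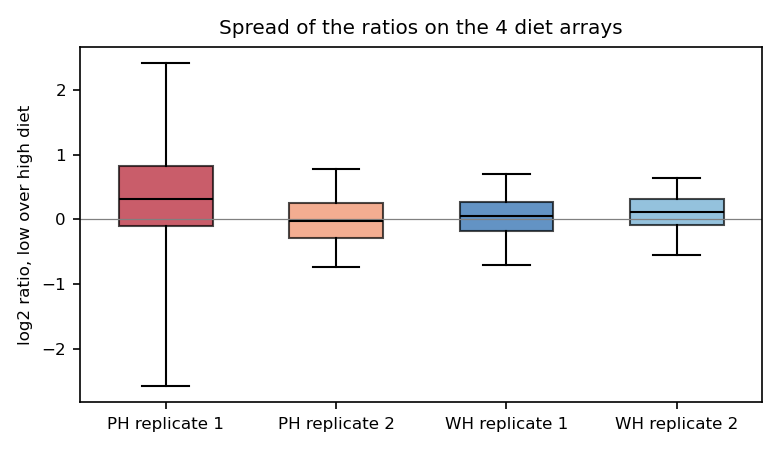
Log2 ratios of low over high diet, each array centred on the median of all its elements, for the 5530 features with values on all 7 arrays; boxes span the quartiles, lines inside them the median, and whiskers run from the 5th to the 95th percentile. PH replicate 1 spread from -2.58 to 2.42, and the other 3 diet arrays stayed between -0.75 and 0.78.

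With all 7 arrays and their own dye term, no feature differed between the diets after adjustment over all features, in the mean of both crosses or in either cross. With limma, 0 of 5530 features passed an adjusted p of 0.05 (0%) for the mean of the crosses, and the lowest adjusted p was 0.353. This call did not hold under a pair of alternatives: with a dye term shared with arrays of other cattle, 42 features passed for the mean and 57 for PH, and without PH replicate 2, 669 and 803. At an unadjusted p under 0.05 there were 554 features (10%), with 473 higher (8.55%) and 81 lower (1.46%) on the low diet, and among named genes 21 were higher and 13 lower. Elements without a single symbol were kept apart, so a clone printed in duplicate can count as more than 1 feature. With spot pairs averaged, 258 of 3521 features (7.33%) had an unadjusted p under 0.05, 199 higher and 59 lower. For PH alone the unadjusted count was 561 (10.1%) with a lowest adjusted p of 0.151, and for WH alone it was 178 (3.22%) with a lowest adjusted p of 0.947. The 95% confidence interval of a feature's mean difference, before adjustment, had a median half-width of 0.45 log2 units. Differences below that size were generally not detectable with these arrays. Larger ones also failed the adjusted threshold, such as 0.87 for MUSTN1, with an adjusted p of 0.441 by limma.

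The excess of higher over lower values depended on the centring. Each array was centred on all its elements, and the 5530 features common to the arrays then had a median of 0.11. When the arrays were centred on these common features instead, all values moved down by about that amount and the unadjusted counts became 373 higher and 270 lower. The count also depended on single arrays. Without PH replicate 1 there were 276 higher and 213 lower of 7728 features, and without PH replicate 2 the total was 1940 (34.4%). Without WH replicate 1 or WH replicate 2 it was 179 (3.13%) or 161 (2.87%), and without either array of PH low diet over WH low diet 365 (6.38%) or 350 (5.59%). When both WH arrays were read the way their titles run, 86 features (1.56%) had an unadjusted p under 0.05 and none an adjusted p under 0.05. In that reading every diet array would have the high diet in Cy5, so dye no longer cancels in the mean. The fitted mean then rests on the WH arrays and the arrays between the crosses, and the PH diet arrays drop out of it.

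A gene seen with one direction on every array carries more than one whose mean rests on a single array. On all 4 diet arrays, 852 features (15.4%) were higher and 323 (5.84%) were lower on the low diet, and with the common centring the counts were 621 and 571. Of the 429 named genes, 91 (21.2%) had one direction on all 4 arrays, 51 higher (11.9%) and 40 lower (9.32%). With both WH arrays read by their titles, 49 named genes (11.4%) and 911 features (16.5%) had one direction instead. The 20 genes described next are the 10 and 10 of these with the smallest unadjusted p. None passed the adjusted threshold, and their adjusted p-values for the mean of the crosses lay between 0.441 and 0.486. Ratios given for single arrays still hold the dye effect of each feature, which enters PH and WH with opposite signs. A gap between the crosses on single arrays therefore holds dye as well as diet.

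MUSTN1, a small nuclear protein of the musculoskeletal system, had the smallest p of the named genes. Its log2 ratios of low over high diet were 0.75 and 0.85 on the PH arrays and 1.08 and 0.81 on the WH arrays. The values of the crosses overlapped, and the fitted mean was 0.87 ± 0.11 (SE), a ratio of 1.83, with an adjusted p of 0.441 by limma. CSRP3, the muscle LIM protein of the Z-disc, gave 1.64 and 0.96 on the PH arrays and 0.32 and 0.42 on the WH arrays. Both PH values were above both WH values, and the fitted mean was 0.84 ± 0.15 (SE). SMPX, a small protein of striated muscle linked to the cytoskeleton, gave 0.60 and 0.66 in PH and 0.28 and 0.75 in WH, with a fitted mean of 0.57 ± 0.12 (SE), and its crosses overlapped. Without PH replicate 1 the fitted means of the 3 genes were 0.90, 0.67 and 0.58; since they were chosen for one direction on all arrays, their sign there was given by the choice.

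Among the other 7 genes higher on every array were 3 ribosomal proteins. RPS21 gave 0.89 and 0.37 in PH and 0.75 and 0.41 in WH. RPLP1, an acidic stalk protein of the large subunit, gave 0.62 and 0.16 in PH and 0.80 and 0.36 in WH. RPS25 gave 0.64 and 0.28 in PH and 0.43 and 0.20 in WH. In these 3 genes replicate 1 was above replicate 2 in both crosses. RND3 gave 1.09 and 0.40 in PH and 0.14 and 0.59 in WH. The remaining 3 carry only locus symbols, LOC506251, LOC524507 and LOC783349, with fitted means of 0.55, 0.40 and 0.33.

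The 10 genes lower on the low diet on every array had varied roles. ZFP36L1, which binds AU-rich messenger RNA and hastens its decay, gave log2 ratios of -1.58 and -0.82 in PH and -0.74 and -0.45 in WH. Its fitted mean was -0.90 ± 0.17 (SE), or 0.536 times the level on the high diet, with an adjusted p of 0.486, and the PH values were both below the WH values. PFKFB3, which makes the activator of phosphofructokinase and so sets the pace of glycolysis, gave -0.10 and -0.96 in PH and -0.80 and -0.85 in WH. Here PH replicate 1 was the weakest, and without it the fitted mean went from -0.68 to -0.89. PDK4, the kinase that closes pyruvate dehydrogenase and spares glucose, gave -0.29 and -0.49 in PH and -0.45 and -0.23 in WH. Its 4 values lay closer together than those of any other gene of the 10 that were lower, and its fitted mean was -0.36 ± 0.11 (SE).

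Several of the other lower genes had their lowest value on PH replicate 1, the array that stood apart. HSPA14, a ribosome-linked member of the heat shock 70 family, gave -4.75 and -1.99 in PH and -0.24 and -1.14 in WH. SCN4B, a beta subunit of voltage-gated sodium channels, gave -3.04 and -1.63 in PH and -0.32 and -0.52 in WH. MLF1 gave -2.17 and -0.34 in PH and -0.71 and -1.15 in WH. Without PH replicate 1 the fitted means of these genes went from -2.03 to -1.34 for HSPA14, from -1.38 to -1.02 for SCN4B and from -1.09 to -0.64 for MLF1. TXNL4B, a thioredoxin-like protein tied to splicing, gave -2.58 and -2.11 in PH and -0.19 and -2.28 in WH. Its array nearest 0 was WH replicate 1, and its fitted mean was -1.79, or -1.67 without PH replicate 1. ATP5PF, the coupling factor of ATP synthase, gave -2.23 and -1.53 in PH and -0.47 and -0.85 in WH. RPL36A and HSPA8, the constitutive heat shock cognate, had fitted means of -0.60 and -0.43, and their PH replicate 1 values of -1.58 and -1.12 were the lowest of the 4.

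**Figure D2:**
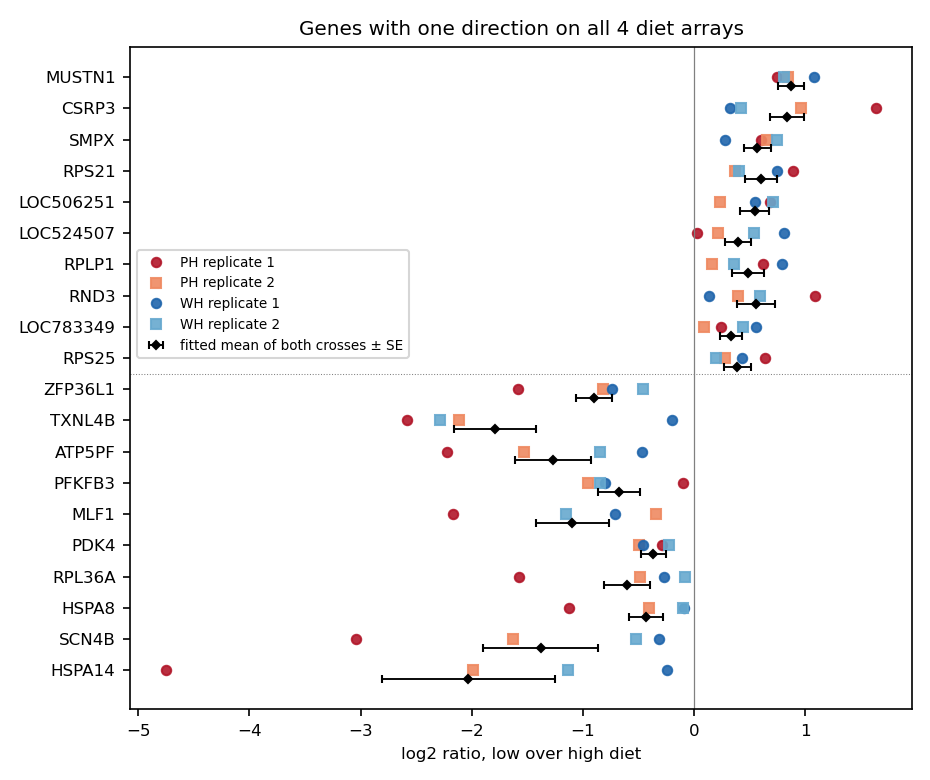
Log2 ratios of low over high diet on each of the 4 diet arrays, with the fitted mean of both crosses and its standard error below them, for the 10 higher and the 10 lower named genes with one direction on all arrays and the smallest p. The 4 values of MUSTN1 run from 0.75 to 1.08, and those of HSPA14 from -4.75 to -0.24.

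The protein-making machinery was represented by 42 ribosomal protein genes. Their median log2 ratio was 0.25, against 0.00097 over all 429 named genes and 0.11 over all features, and 32 of 42 were above 0, against 216 of 429. On the single arrays the medians were 0.35 and 0.20 in PH and 0.24 and 0.26 in WH, and 28, 32, 34 and 35 members were above 0. With the WH arrays read by their titles, their medians would be -0.24 and -0.26, opposite to PH, and 2 members would have one direction on all 4 arrays. At an unadjusted p under 0.05, 7 of 42 members were higher, against 21 of 429 named genes and 8.55% of all features, and 1, RPL36A, was lower. On all 4 arrays 15 of 42 were higher, against 51 of 429 named genes and 15.4% of all features. With the common centring the median was 0.14, 29 members were above 0 against 166 of 429, and 13 were higher on all 4 arrays. That compares with 34 of 429 named genes and 621 of 5530 features. Without PH replicate 1 the median was 0.19 and 22 of 42 were higher on all 3 remaining diet arrays, against 89 of 429 named genes. None of the 42 passed the adjusted threshold.

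RPS29 gave 0.64 and -0.01 in PH and 0.74 and 0.63 in WH, RPS16 gave 0.64 and 0.22 in PH and 0.36 and 0.57 in WH, and RPL14 gave 0.34 and 0.25 in PH and 0.20 and 0.27 in WH. All values but that of RPS29 on PH replicate 2 were above 0. These 3 genes were picked after their values were seen, and their fitted means were above 0, as in 32 of the 42. Members below 0 included RPSA, RPS9, RPL8 and RPS14, with fitted means of -0.56, -0.32, -0.24 and -0.19. Ribosomal protein genes have many close copies in the genome, and cDNA elements may not tell them apart.

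The contractile genes as a group showed no common direction. Of 30 genes of the sarcomere and contraction, 19 were above 0 and the median was 0.06, and with the common centring 12 were above 0 and the median was -0.05. At an unadjusted p under 0.05, 3 of 30 were higher, near the 8.55% of all features, and 0 lower. The 3 were CSRP3, SMPX and FHL1, a LIM-domain protein of muscle that gave 0.73 and 0.03 in PH and 0.55 and 0.56 in WH. The 12 genes of fast fibers had a median of -0.12, and 0 of them had one direction on all arrays. MYOZ1, which tethers calcineurin at the Z-disc, gave -0.51 and -0.39 in PH and 0.03 and 0.01 in WH. TPM1 and ACTN3, tropomyosin and the fast-fiber actinin, had fitted means of -0.26 and -0.24. The 8 genes of slow fibers had a median of 0.13. Their smallest p-values after CSRP3 were those of TPM3, a slow tropomyosin, and MYL3, a slow light chain, with fitted means of -0.68 and 0.27, which point in opposite directions. TPM3 on PH replicate 1 was at -1.81, and on the other 3 diet arrays between -0.58 and 0.02. Of the 4 measured genes of calcium handling, the calcium pumps ATP2A2 and ATP2A1 had fitted means of 0.20 and -0.08, and CASQ1, the calcium store of the reticulum, 0.12.

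Genes of fuel use were mixed in direction. In glycolysis and glycogen, 17 genes had a median of 0.11, with 1, PFKFB3, lower and 0 higher at an unadjusted p under 0.05. Over all features the median was also 0.11, with 8.55% higher and 1.46% lower. The median of the 17 genes was 0.43 on PH replicate 1 and -0.27 on PH replicate 2. Without PH replicate 1 it was -0.07 and 5 of 17 were above 0, against 10 of 17 with all arrays. FBP2, the muscle fructose bisphosphatase that opposes the phosphofructokinase step, gave 0.80 and 0.46 in PH and -0.11 and 0.31 in WH. PGM1, which links glycogen to glycolysis, gave 0.43 and -0.10 in PH and 0.36 and 0.35 in WH. In the fuel switch and fatty acid oxidation, 5 genes were measured and PDK4 was the 1 with an unadjusted p under 0.05. It was lower, as were 13 of 429 named genes. TXNIP, an inhibitor of thioredoxin and of glucose uptake, was also below 0 on all 4 arrays, at -0.14 and -0.23 in PH and -0.22 and -0.16 in WH. The fatty acid carrier CD36 had a fitted mean of -1.06 ± 1.35 (SE), which leaves its direction undetermined. Among the genes that pass on high-energy phosphate, CKMT2, AK1 and SLC25A4 had fitted means of -0.26, -0.72 and 0.20.

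In the respiratory chain, the 4 genes of complexes II and III had a median of 0.34, and all 4 were above 0, against 216 of 429 named genes. On PH replicate 2 their median was 0.03 and 2 of 4 were above 0. Without PH replicate 1 the median was 0.18 and 3 of 4 were above 0. With the common centring it was 0.22, and all 4 were above 0. UQCRQ, a small subunit of complex III, gave 0.74 and 0.05 in PH and 0.83 and 0.43 in WH. UQCRC1 and SDHD had fitted means of 0.39 and 0.28. Of 7 genes of ATP synthase, 6 were above 0 and the median was 0.22. ATP5E, the epsilon subunit, gave 0.44 and 0.49 in PH and 0.27 and 0.08 in WH, and ATP5F1D, the delta subunit, 0.34 and 0.06 in PH and 0.35 and 0.41 in WH. ATP5PF stood against these, with a fitted mean of -1.27. With the common centring 6 of 7 were again above 0, but 0 were higher and 1 was lower at an unadjusted p under 0.05. Of the 429 named genes, 14 were higher and 19 lower there. The 9 genes of cytochrome c oxidase spread widely, with COX5B, COX6A2 and COX7A2 at 0.47, 0.81 and -0.81, and COX6A2 and COX7A2 were at 2.52 and -3.09 on PH replicate 1. For the 4 genes of complex I the fitted means of NDUFV3, NDUFB8 and NDUFA7 were 1.49, -0.11 and 0.02, and NDUFV3 was at 5.54 on PH replicate 1 and between 0.06 and 0.18 on the other diet arrays. For the citric acid cycle, IDH3A, MDH2 and SDHA were at -0.53, -0.18 and 0.16.

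The genes of lipid synthesis and adipocytes had the lowest median of the lists, and 1 array set it. Of 14 genes, 13 were below 0 and the median was -0.32. The array medians were -1.54 on PH replicate 1, 0.12 on PH replicate 2, and -0.19 and -0.09 on the WH arrays. Without PH replicate 1 the median was -0.02, and 6 of 14 were above 0. THRSP, a regulator of lipid synthesis, was the 1 member with an unadjusted p under 0.05, against 13 lower of 429 named genes. It gave -3.22 and -1.49 in PH and -0.73 and 0.25 in WH. SREBF2, which drives sterol synthesis, gave -4.84 and -1.14 in PH and -0.20 and -0.06 in WH, and was lower on all 4 arrays. IDH1, a source of NADPH, gave -2.25 and 0.39 in PH and -0.35 and -0.29 in WH. In RNA from whole muscle, fewer fat cells and less RNA per fat cell cannot be told apart.

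Markers of fat cells did not share a direction on PH replicate 1. Of 12 adipocyte markers 4 were measured on all arrays. ADIPOQ, the fat cell hormone adiponectin, gave -2.04 and 0.66 in PH and -0.14 and -0.12 in WH. FABP4, the fatty acid carrier of fat cells, gave -1.81 and 0.29 in PH and 0.40 and -0.04 in WH. LPL, the lipase that releases fatty acids from lipoproteins, gave -0.46 and -0.22 in PH and -0.18 and 0.11 in WH, and CIDEC, of the lipid droplet, 0.93 and 0.02 in PH and 0.06 and -0.23 in WH. ADIPOQ and FABP4 were thus far below 0 on PH replicate 1 and above 0 on PH replicate 2, while CIDEC was highest on PH replicate 1. Ratios of this size were common on PH replicate 1, whose 5th and 95th percentiles were -2.58 and 2.42. The part of fat cells in the values of that array was not tested. Of 15 muscle fiber markers 10 were measured, with a median of 0.03 and fitted means between -0.24 and 0.23 for MYL2, ACTN3, DES, ACTN2, MB, MYL1, MYH1, TNNC1, ACTA1 and CKM. The 5 fibroblast markers FBN1, COL3A1, COL1A1, COL1A2 and DCN had fitted means between -0.22 and 0.45, and CD74, the 1 immune marker measured, was at -0.02. No marker of endothelium, blood, nerve or skin was measured on all 7 arrays, so RNA of these cells was not examined. Because the values are ratios, the labelled tissue could not be checked against the level of its markers.

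With all 7 arrays fitted, connective tissue genes gave no common direction. The collagens COL3A1, COL1A1 and COL1A2 had fitted means of -0.20 ± 0.19, -0.22 ± 0.37 and 0.09 ± 0.21 (SE). Among 11 other matrix genes, 4 were above 0, and SPP1, FBN1 and BGN had fitted means of -1.12, 0.45 and 0.86. On PH replicate 1 these 3 were at -3.64, 1.03 and 1.24. Of the 11 matrix genes, 2 were above 0 on that array. Without it 10 of the 11 fitted means were above 0, against 237 of 429 named genes, and the median was 0.07. Even then 0 of the 11 had one direction on all remaining diet arrays. Of 9 heat shock and chaperone genes, 6 were above 0 with a median of 0.21, and HSPA8, HSP90AB1 and CRYAB were at -0.43, 0.40 and 0.25. The median of the 9 was 0.44 on PH replicate 1 and between -0.11 and 0.12 on the other diet arrays. Without PH replicate 1 it was 0.02, with 5 of 9 above 0.

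**Figure D3:**
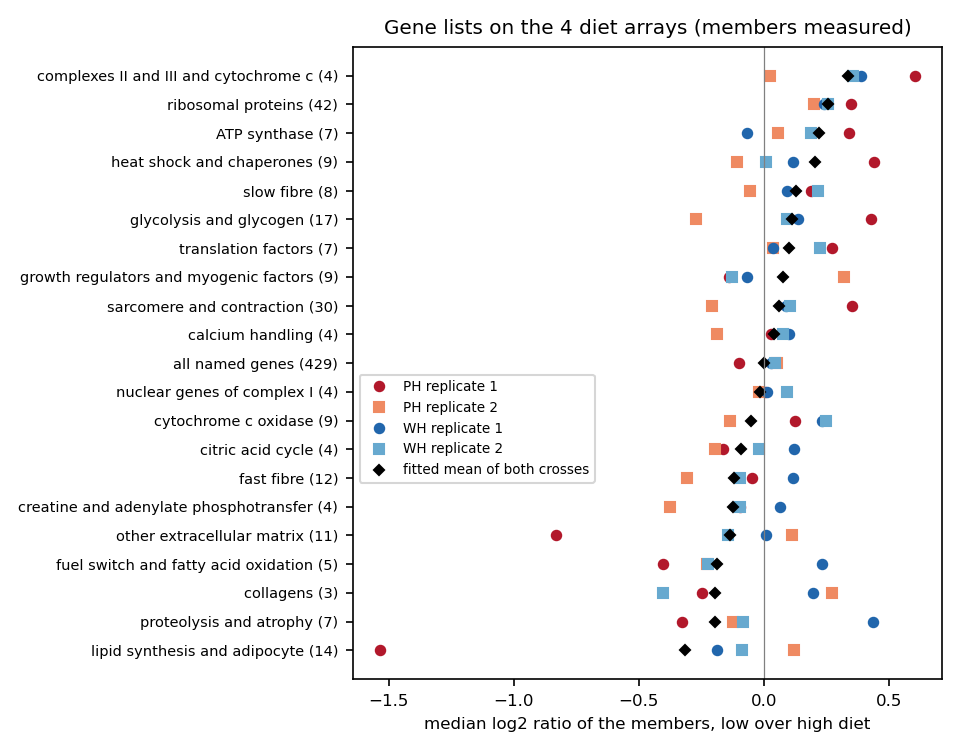
Median log2 ratio of low over high diet of the measured members of each gene list, on each of the 4 diet arrays and for the fitted mean of both crosses; the number of members is in brackets. The ribosomal proteins lie between 0.20 and 0.35 on all 4 arrays, and the lipid synthesis and adipocyte list is at -1.54 on PH replicate 1 and between -0.19 and 0.12 on the others.

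Whether the crosses responded alike was asked with the difference of the diet effects, PH minus WH. With limma, 0 of 5530 features differed at an adjusted p of 0.05 (0%), 116 had an unadjusted p under 0.05 (2.1%), and the lowest adjusted p was 0.926. The 95% interval of this difference had a median half-width of 0.71 log2 units, so that the arrays do not show that the crosses acted alike. Before dye was taken out, both PH arrays had one direction and both WH arrays the other in 911 features (16.5%). The low diet was in Cy3 in PH and in Cy5 in WH, so this count cannot tell dye from a difference between the crosses. The replicates themselves shared a direction in 55.2% of features in PH and 68.1% in WH.

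PHF5A, a subunit of the splicing factor SF3b, had the smallest p among genes with a positive difference. Its log2 ratios of low over high diet were 1.05 and 1.04 in PH and 0.09 and -0.24 in WH, and the difference was 0.86 ± 0.17 (SE) with an adjusted p of 0.926. RPL21 gave 0.36 and 0.72 in PH and 0.03 and 0.19 in WH, and GALNT16, which starts mucin-type sugar chains, 0.17 and 0.24 in PH and -0.60 and -0.42 in WH. In these 3 genes both PH arrays were above both WH arrays, before dye was taken out. CKMT2, the mitochondrial creatine kinase of muscle, gave -0.53 and -0.64 in PH and 0.18 and -0.05 in WH. CTSB, a lysosomal protease, gave -1.17 and -0.53 in PH and 0.05 and -0.08 in WH, and its difference of -0.73 became 0.30 when ratios at the table limit were kept. SERPINA3-3, a serine protease inhibitor, had a difference of -3.93, but its diet arrays overlapped, at -2.32 and -0.21 in PH and -0.22 and -1.20 in WH. That value came through the 1 array of WH high diet over PH high diet, where it was at -6.55.

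Within PH the smallest p-values were those of MUSTN1, CSRP3 and PHF5A among higher genes, with fitted log2 ratios of 0.99, 1.32 and 0.92, and of SERPINA3-3, ZFP36L1 and ASB5 among lower genes, at -2.95, -1.09 and -1.73. Within WH they were those of MUSTN1, SMPX and PGM1, at 0.76, 0.52 and 0.54, and of ATP5PF, GALNT16 and ZFP36L1, at -2.02, -0.52 and -0.70. MUSTN1 and ZFP36L1 were among both sets. All fitted values within a cross came in part through the arrays between the crosses, which are needed to separate dye from diet. With the 4 diet arrays only, SERPINA3-3 was at -1.27 in PH, and ATP5PF was at -0.66 in WH, where its 2 arrays were nearer 0 than those of PH. In that setting, where dye stays in, MUSTN1 was at 0.80 and ASB5 at -2.21 in PH, and PGM1 at 0.35 in WH. CSRP3 differed by 0.97 between the crosses, with a 95% interval from 0.33 to 1.61 before adjustment and an adjusted p of 0.926. On the array of WH high diet over PH high diet CSRP3 was at 1.01, and on the 2 arrays of PH low diet over WH low diet at 0.10 and -0.10.

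**Figure D4:**
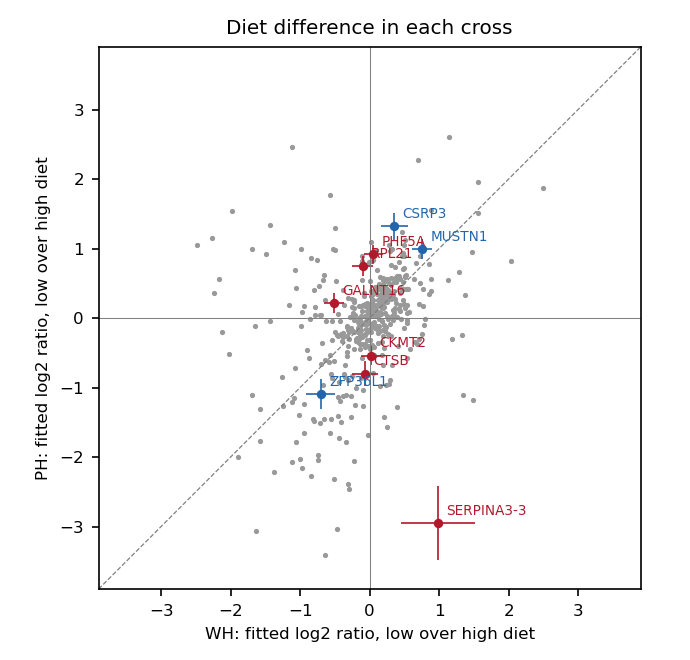
Fitted log2 ratios of low over high diet in PH (vertical) against WH (horizontal) for the 429 named genes (grey points), with standard errors for the 3 and 3 genes of the smallest p for the difference (red) and for MUSTN1, CSRP3 and ZFP36L1 (blue); the dashed line marks equal values. SERPINA3-3 lies farthest from the line, at -2.95 in PH and 0.98 in WH.

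The same table holds another experiment on diet, with low and medium diet cattle of a breed the labels do not give, on 14 arrays that mostly use a pool of high diet muscle as reference. With limma 3 of 14039 features differed there between low and high diet at an adjusted p of 0.05 (0.0214%), all lower on the low diet: COL1A2 at -2.58, with an adjusted p of 0.0129, AK1 at -2.12, and an unnamed element. These calls were not stable: 0 features passed with array weights or without low diet replicate 4, 1 without low diet replicate 1 or 2, and 1348 with no centring, of which 1180 were higher. In the crossbreds COL1A2 was at 0.09 and AK1 at -0.72. A direct test of crossbreds minus other cattle called 0 of 5333 features (0%), with 494 at an unadjusted p under 0.05 (9.26%) and a lowest adjusted p of 0.0798. Across 416 named genes the diet differences of both experiments correlated at -0.07, across genes that are not independent replicates.

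Of the 20 genes with one direction on all crossbred arrays, 19 had a value in the other cattle and 13 of these had the same sign. Over all 416 named genes with values in both experiments, 190 (45.7%) had the same sign. With the WH arrays read by their titles, the fitted signs of 17 of the 20 would turn. The PH diet arrays drop out of the fitted mean in that reading. On the 4 arrays of low diet animals over the high diet pool, before dye was taken out, CSRP3 was at 0.67, 0.82, 0.83 and 0.62, and its fitted value was 0.61 ± 0.41 (SE) with an adjusted p of 0.572. MUSTN1 was at 0.51, 1.36, 1.53 and 0.29 there, and its fitted value, with dye taken out, was 0.19 ± 0.53 (SE), with an adjusted p of 0.905. PDK4 was at 0.14, -0.90, -0.96 and -1.12, and fitted at -1.90 ± 0.65 (SE), with an adjusted p of 0.197. PFKFB3 was at 0.28, -1.16, -1.77 and -0.77, and fitted at -1.80 ± 0.71 (SE), with an adjusted p of 0.297. ZFP36L1 was above 0 on all 4 of these arrays, from 0.03 to 0.89, and fitted at -0.55 ± 0.91 (SE). The fitted values of MUSTN1, PDK4, PFKFB3 and ZFP36L1 lay below all 4 of these arrays. They also draw on the dye term and on arrays of pools. The dye-swapped pool pairs correlated at -0.19 for low against high diet, -0.89 for medium against high and -0.23 for medium against low. The fitted sizes are therefore uncertain. The ribosomal proteins, with a median of 0.25 in the crossbreds, had a median of -0.08 in the other cattle, where the median of the named genes was -0.11. None of the 19 genes passed the adjusted threshold in either experiment.

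**Figure D5:**
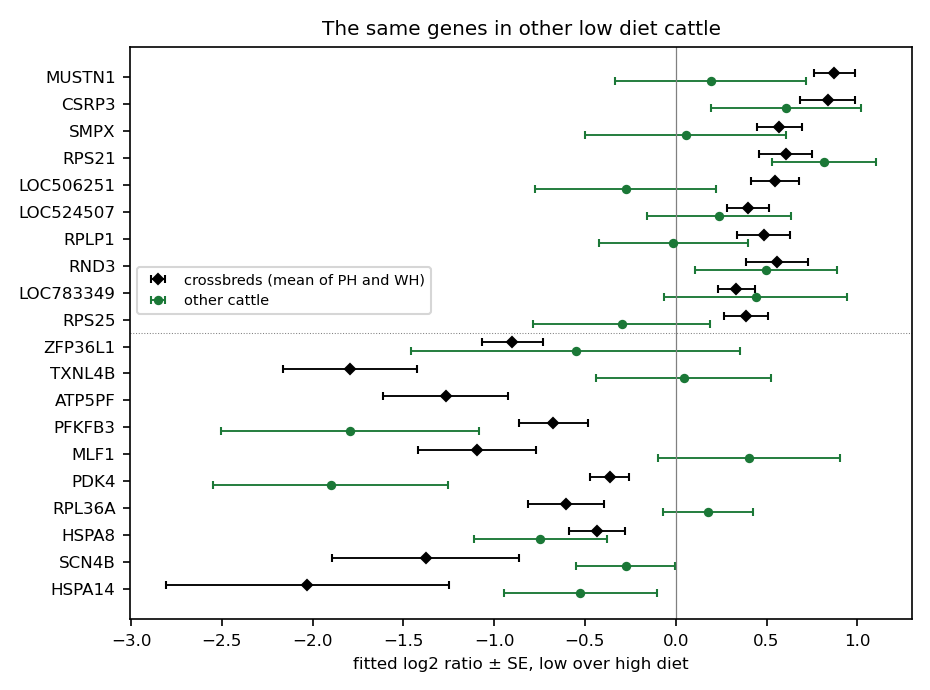
Fitted log2 ratios of low over high diet with standard errors for the 20 genes with one direction on all crossbred diet arrays, in the crossbreds (black, mean of PH and WH, 7 arrays fitted) and in the other cattle (green, 14 arrays fitted). PDK4 is at -0.36 in the crossbreds and -1.90 in the other cattle, and ATP5PF has no value there.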

How the data were processed

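Longissimus muscle RNA was compared on two-colour cDNA arrays. The authors deposited log2 ratios per array element. How the diet arrays were edited or normalized before deposit is not given in the sources used here, and neither scale nor direction is stated. Medians of the 4 diet arrays were 0.416, -0.204, -0.212 and -0.026, so the ratios were not centred. Intensities were not used, so background corrections were not tried.

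Ratios capped by the table were treated as missing, arrays were centred on their medians, and elements with 1 gene symbol were averaged per gene; gene identifiers of 4286 of 4304 such elements matched the reference table, 180 elements had several symbols and 14716 none. Features with values on all 7 arrays were fitted with limma 3.58.1 in R 4.3.3, with terms for diet in PH, diet in WH, breed on the low diet, and dye (3 residual degrees of freedom, plus 1.55 from moderation). With the dyes of the labels, dye cancels in the mean of the crosses and is taken out of their difference. P-values were adjusted by Benjamini-Hochberg over all features.

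Named were, for the mean of the crosses, 10 higher and 10 lower genes with the smallest p among those with one direction on all 4 arrays, since none passed; 3 and 3 for each cross and for the difference; in each gene list, the 3 genes of lowest p; and every marker that was measured. RPS29, RPS16 and RPL14, list members that were also higher on the low diet, were added after their values were seen. RPSA, RPS9, RPL8 and RPS14 were added later as members below 0. The arrays, lists and tests were chosen with earlier results of these data known. Alternatives were other centring, scaling, weights, filters, feature definitions, dye terms and left-out arrays.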

Additional observations from a re-analysis of the deposited data

How the results depend on the processing

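Counts of calls at an adjusted p of 0.05 stayed at 0 under all 19 alternatives for WH and for the difference between the crosses, and under 17 of 19 for PH and for the mean of the crosses. Leaving out each replicate in turn gave 0 to 669 calls for the mean and 0 to 803 for PH. All of these came without PH replicate 2, when PH rests on replicate 1 alone. A dye term shared with 12 arrays of Japanese Black and Holstein cattle gave 42 calls for the mean (38 higher, 4 lower; by name CSRP3, PHF5A, SMPX, TXNL4B and ZFP36L1) and 57 for PH. The cause was not tested. Replicate numbers were not taken as pairs, since only 2 exist and nothing ties them to animals; with a replicate block 417 features had an unadjusted p under 0.05 for the mean, 435 for PH, 146 for WH and 79 for the difference, and the calls stayed at 0. The difference of replicate 1 minus replicate 2, across features, correlated between PH and WH at 0.17, between PH and the low diet arrays across crosses at 0.36, and between WH and those at 0.18. In the other cattle the 3 calls became 1348 with no centring, 37 with MAD scaling, 51 with single elements, 0 with array weights, and 0 to 2 without one low diet replicate. For crossbreds minus other cattle, no centring gave 97 calls and MAD scaling 3.

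With the dyes of the labels kept, CTSB turned to 0.30 in the difference when limit values were kept; the signs of the 20 means were given by the choice of genes and say nothing of stability. The turned direction of the WH arrays, the common centring, averaged spot pairs and removed exact ratios were chosen after seeing the data. With WH turned, dye no longer cancels in the fitted mean. That mean is then set by the WH arrays and the arrays between the crosses, without the PH diet arrays, so it is not an average of both crosses' diet arrays. With WH turned, the means became -0.64 for MUSTN1, -0.47 for SMPX, -0.38 for RPS21, -0.46 for LOC506251, -0.49 for LOC524507, -0.61 for RPLP1, -0.47 for RND3, -0.35 for LOC783349, -0.22 for RPS25, 0.51 for ZFP36L1, 0.96 for TXNL4B, 2.77 for ATP5PF, 0.42 for PFKFB3, 0.80 for MLF1, 0.43 for PDK4, 0.11 for RPL36A and 0.66 for HSPA8. In WH they became -1.51 for MUSTN1, -1.04 for SMPX, -1.08 for PGM1, 4.03 for ATP5PF, 1.03 for GALNT16 and 1.41 for ZFP36L1, and the difference for GALNT16 became -0.30.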

Other observations

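Among 7 genes of protein breakdown, CTSB was the 1 with an unadjusted p under 0.05, against 13 lower of 429 named genes. Its fitted log2 ratio of low over high diet was -0.43 ± 0.14 (SE). The proteasome subunits PSMB4 and PSMD4 were at 1.22 and -1.15, and on PH replicate 1 they were at 3.60 and -3.83. Among 9 growth regulators and myogenic factors, MEF2C, a transcription factor of muscle, gave 1.35 and 0.82 in PH and -0.05 and 0.10 in WH, and IGFBP3, a carrier of insulin-like growth factors, was lower on all 4 arrays, at -0.56 and -2.32 in PH and -1.64 and -1.24 in WH, with a fitted mean of -1.44 ± 0.96 (SE). Among 7 translation factors, EIF3H, EEF2 and EIF3D were at -1.06, 0.32 and 0.49. None of these genes passed the adjusted threshold.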
